A study of Mus musculus with 8 samples.

Results

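Among the 10 acyl-CoA dehydrogenase genes of neonatal cardiomyocytes (NCMs), Acadvl and Acadl, whose enzymes take very long and long fatty acyl chains, were lower after in utero exposure to diesel exhaust (DE) than after filtered air (FA). Acadvl fell by 39.0% and Acadl fell by 32.7%, and both passed the test. Acadm, for medium chains, had a fitted difference of -18.4% and did not pass. No member passed in the other direction. The members were chosen by their mouse gene symbols, Acadl, Acadm, Acads, Acadvl, Acadsb, Acad8, Acad9, Acad10, Acad11 and Acad12. All 10 were found among the 27179 Entrez genes of the count table, and all 10 were tested.

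The data were RNA-seq fragment counts from 8 libraries of C57Bl/6J mice, each made from the NCMs of 1 male heart at postnatal day 0. Dams breathed FA (replicates 2, 3, 4 and 6) or DE (replicates 1, 3, 5 and 7) from embryonic day 0.5 until late gestation, and matings took place in FA. The NCMs were suspended cells left after other cells had attached to a plate, so cells of other types could be present. The sample names begin with a group and a number, here called the prefix. It is 11 in every FA library and in DE replicates 1 and 7, and 12 in DE replicates 3 and 5, and its meaning is not given in the sources used here. Whether pups of a group shared a litter is also not given, so p-values measure only the spread between these libraries. The methods give a smaller n without naming libraries, so all 8 were used.

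Acyl-CoA dehydrogenases are flavoenzymes that carry out the first step of each round of mitochondrial β-oxidation. They take a pair of hydrogens from an acyl-CoA and hand the electrons to the electron transfer flavoprotein, from which they pass to ubiquinone of the respiratory chain. The enzymes differ in the chain they prefer, and the heart, which comes to burn fatty acids after birth, is rich in those for longer chains. Other members act on branched acyl-CoAs made from amino acids, and Acad9 also helps to build respiratory complex I.

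The promoters of the 4 straight-chain genes are shown because these genes form the series of chain lengths on which the comparison rests. Each run covers 250 bases before to 50 bases after the start of the gene, 5′ to 3′ on the gene's own strand, from RefSeq on GRCm38.p6, the assembly also called mm10. Capitals mark the letters AGGTCA, the core element that nuclear receptors bind, and GGGCGG, the GC box, on either strand.
Acadvl (chr11:70015379-70015678, minus strand): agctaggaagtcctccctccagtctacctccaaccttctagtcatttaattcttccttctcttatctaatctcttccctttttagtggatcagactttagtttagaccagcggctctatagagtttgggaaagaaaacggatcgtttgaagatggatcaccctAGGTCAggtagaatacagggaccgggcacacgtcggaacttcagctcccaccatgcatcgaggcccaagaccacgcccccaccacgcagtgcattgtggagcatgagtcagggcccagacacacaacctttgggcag
Acadl (chr1:66863260-66863559, minus strand): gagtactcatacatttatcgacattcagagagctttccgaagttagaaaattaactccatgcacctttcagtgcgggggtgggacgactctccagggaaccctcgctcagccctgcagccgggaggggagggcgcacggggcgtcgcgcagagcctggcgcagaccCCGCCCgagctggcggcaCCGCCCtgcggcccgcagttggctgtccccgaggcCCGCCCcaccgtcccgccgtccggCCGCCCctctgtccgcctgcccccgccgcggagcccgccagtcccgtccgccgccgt
Acadm (chr3:153944594-153944893, minus strand): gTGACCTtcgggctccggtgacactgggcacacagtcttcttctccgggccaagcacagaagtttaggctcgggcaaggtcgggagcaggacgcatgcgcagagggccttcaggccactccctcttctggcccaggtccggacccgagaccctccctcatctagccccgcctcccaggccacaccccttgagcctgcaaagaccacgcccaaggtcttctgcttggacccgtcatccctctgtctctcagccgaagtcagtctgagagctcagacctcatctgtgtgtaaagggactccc
Acads (chr5:115119297-115119596, minus strand): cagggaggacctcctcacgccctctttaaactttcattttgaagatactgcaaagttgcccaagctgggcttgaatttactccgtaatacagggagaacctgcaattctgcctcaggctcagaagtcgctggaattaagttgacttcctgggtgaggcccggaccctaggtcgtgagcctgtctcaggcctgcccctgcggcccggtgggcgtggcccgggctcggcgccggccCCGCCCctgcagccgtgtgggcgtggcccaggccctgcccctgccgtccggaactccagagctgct
The windows of the pair of genes that fell differ in their letters. That of Acadvl was 50.7% G and C with 9 CpG dinucleotides and had 1 AGGTCA element, 87 bases before the start, and no GC box. That of Acadl was 70.3% G and C with 34 CpG dinucleotides and had 4 GC boxes and no AGGTCA element. Acadm had 1 AGGTCA element, 249 bases before the start, and Acads had 1 GC box.

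Windows were present for 9 members, all but Acad9. The AGGTCA element was found in 2 of these 9 windows and in 16.3% of all 32851 promoter windows of the same length. The GC box was found in 5 of 9, against 35.7% of all windows. The full site of PPAR and RXR, searched as a pair of AGGTCA elements with 1 base between them, was in none of the 9 and in 0.0396% of all windows. TCAAGGTCA, the extended element of the estrogen-related receptors, which contains AGGTCA, was also in none of the 9, against 0.423%. Acad10 and Acad12 each had 2 matches to the site of the factor NRF1, searched as GCGC and TGCGC with 1 base between them, which was found in 4.60% of windows. CCAAT was in 2 of 9 (Acad8 and Acad11) against 37.4%, and TATAAA was in none of the 9 against 13.6%. A match of letters is no evidence of binding. Only exact matches were searched, so the absence of a match speaks only of these letters in this window, and imperfect copies of a site would be missed.

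Levels of different genes were compared as CPM per kilobase of merged exons, where CPM is the count scaled to a common library size. In FA, Acadl was the most abundant at 558 CPM per kilobase, followed by Acadm at 315 and Acadvl at 286. Acads stood at 72.0 CPM per kilobase, Acad9 at 20.1, Acad8 at 12.7, Acadsb at 11.8 and Acad11 at 8.75. Acad12 at 2.15 and Acad10 at 1.18 CPM per kilobase were lowest. Among these members, the 4 straight-chain genes were thus each above Acadsb and Acad8.

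In FA the libraries of Acadm (304 to 321 CPM per kilobase) and Acadvl (269 to 318) overlapped, as did those of Acad8 and Acadsb. In DE the order of the means was the same, with Acadl at 376, Acadm at 257 and Acadvl at 175 CPM per kilobase. The libraries of Acadm (231 to 279) and Acadvl (159 to 194) no longer overlapped in DE. With the longest coding transcript in place of merged exons, Acadsb at 13.1 and Acad8 at 12.7 CPM per kilobase changed places in FA.

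The exposure was tested with edgeR's quasi-likelihood method over 14966 genes. A gene was called when its Benjamini-Hochberg adjusted p was at most 0.05 and its fitted difference at least 25%. Of the 10 members 2 were called, against 5.80% of all tested genes (868 genes, or 237 to 1168 with 1 library left out). Both were lower in DE, as were 2.22% of all genes by the same rule, and none was called higher, against 3.58%. An unadjusted p under 0.05 was found for 3 members, all lower, against 25.6% of all genes. DESeq2 called 2 members lower and 0 higher, and 1618 of the 14966 genes over the whole table. The CPM of the groups did not overlap for 3 members, against 14.7% of all genes. All 3 were lower in DE, against 7.26%, and 0 were higher, against 7.43%. The fitted log2 fold change was below 0 for 7 members, against 49.5% of all genes. The median log2 fold change was -0.14 over the 10 members and 0.00 over all tested genes. Summed fibroblast markers were also higher in every DE library (2445 to 4068 CPM) than in every FA library (1332 to 2212 CPM), and their part in these results was not tested.

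**Figure D1:**
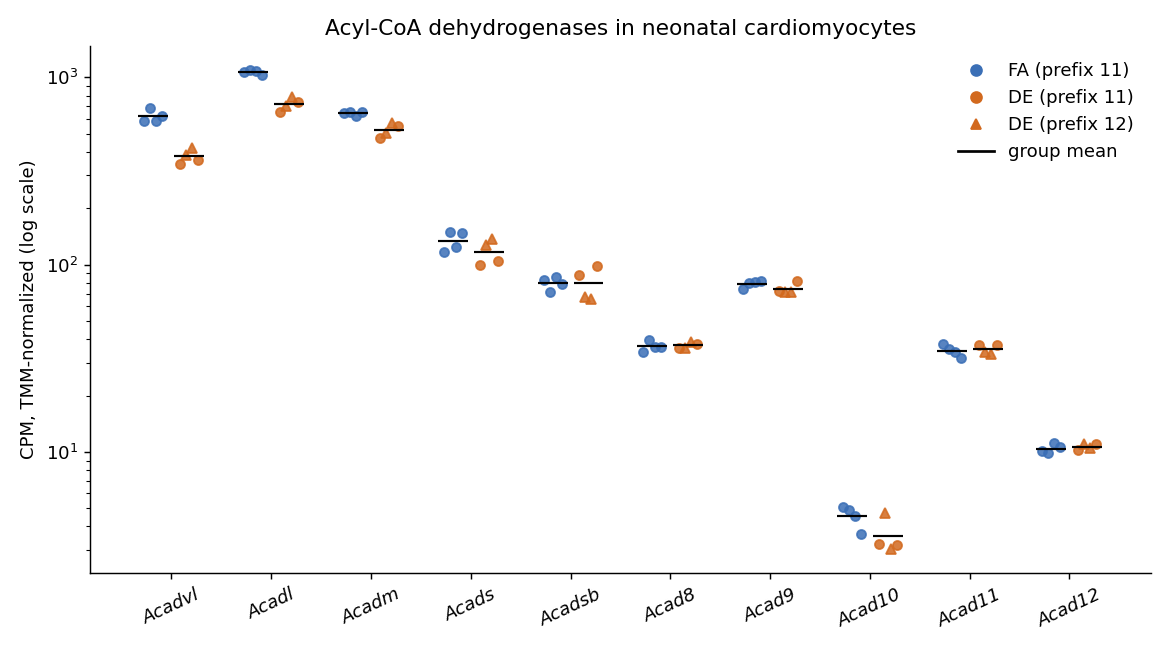
CPM (log scale) of each of the 10 genes in each library, with FA in blue, DE in orange and triangles for the DE libraries of prefix 12, and black lines at the group means. For Acadvl, Acadl and Acadm every DE library lies below every FA library, while the groups of the other 7 genes overlap.

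Acadvl (Entrez gene 11370, chromosome 11 from 70010183 to 70015428) encodes the very long-chain enzyme, which is bound to the inner mitochondrial membrane. It was at 582, 689, 588 and 623 CPM in FA replicates 2, 3, 4 and 6, and at 345, 385, 421 and 364 CPM in DE replicates 1, 3, 5 and 7. The highest DE library was thus well below the lowest FA library. The mean was 621 ± 49.2 CPM in FA and fell to 379 ± 32.9 CPM in DE (SD, n = 4 each). The fitted log2 fold change was -0.71, with a standard error of 0.10 and a 95% interval from -0.93 to -0.49 (adjusted p = 0.00320 in edgeR's test). It was called under each of the 19 alternatives that were fitted, which changed the scaling, the filter, the test, the use of the prefix or the libraries kept. In the libraries of prefix 11 alone, 4 FA against 2 DE, its log2 fold change was -0.81 (edgeR, adjusted p = 0.0132).

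Acadl (Entrez gene 11363, chromosome 1 from 66830839 to 66863309) encodes the long-chain enzyme of the matrix, the main one for such chains in rodents. Its CPM was 1064, 1097, 1085 and 1030 in FA replicates 2, 3, 4 and 6. In DE replicates 1, 3, 5 and 7 it was 654, 706, 783 and 736. FA libraries lay close together, and DE replicate 5 came nearest to them. The mean of 1069 ± 29.4 CPM in FA fell to 720 ± 53.8 CPM in DE (SD, n = 4 each). This was a fitted log2 fold change of -0.57, with a standard error of 0.09 and a 95% interval from -0.77 to -0.37 (adjusted p = 0.00684 in edgeR's test). The call was lost when the 25% difference was built into the test (edgeR, adjusted p = 0.118, range 1.76e-08 to 0.118 over the alternatives). In the libraries of prefix 11 alone its log2 fold change was -0.63 (edgeR, adjusted p = 0.0282).

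Acadm (Entrez gene 11364, chromosome 3 from 153922353 to 153944643) encodes the medium-chain enzyme, whose deficiency is a common inborn error of fatty acid oxidation. It was at 643, 657, 623 and 655 CPM in FA replicates 2, 3, 4 and 6. It was at 472, 508, 571 and 553 CPM in DE replicates 1, 3, 5 and 7. The groups did not overlap, yet the gap between them was narrower than for Acadvl and Acadl. The means were 645 ± 15.9 and 526 ± 44.8 CPM (SD, n = 4 each). The fitted log2 fold change of -0.29, with a standard error of 0.09 and a 95% interval from -0.50 to -0.09, did not pass (adjusted p = 0.0836 in edgeR's test). DESeq2 gave an adjusted p of 0.0192, the lowest of the alternatives, whose highest was 1.00, but its log2 fold change of -0.29 was short of the 25% difference. Acadm was therefore not called in any fit. In all 3 genes DE replicate 1 was the lowest library and DE replicate 5 the highest of the DE group.

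Acads (Entrez gene 11409, chromosome 5 from 115110299 to 115119346), the short-chain enzyme, was at 116, 149, 124 and 148 CPM in FA replicates 2, 3, 4 and 6, and at 99.8, 128, 137 and 104 CPM in DE replicates 1, 3, 5 and 7. The groups overlapped, and each group fell into a lower and a higher pair of libraries. In DE the lower pair carried prefix 11 and the higher pair prefix 12. The log2 fold change was -0.20 (95% interval -0.48 to 0.09, adjusted p = 0.367 in edgeR's test), so a decrease of 28.5% lies within the interval. With the prefix as a term it was -0.40 (edgeR, adjusted p = 0.125, range 0.125 to 1.00 over the alternatives).

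**Figure D2:**
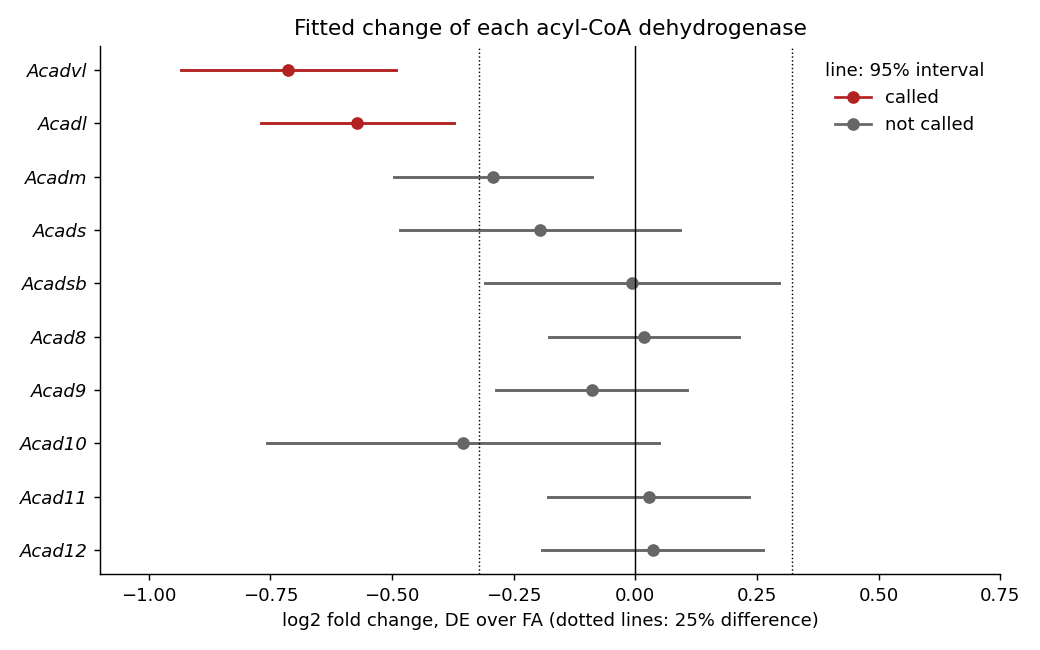
Log2 fold change of DE over FA for each gene, with 95% intervals from edgeR's quasi-likelihood fit, red where called and dotted lines at a 25% difference. Acadvl at -0.71 and Acadl at -0.57 stand apart from 0, Acadm lies at -0.29, and Acad10 has the widest interval.

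The ratio of 2 members within a library does not depend on the scaling of the library, so the 6 pairs of straight-chain genes were compared by permuting the 8 libraries (exact, two-sided). Acadvl stood at 0.906, 1.05, 0.944 and 0.951 of the CPM of Acadm in FA replicates 2, 3, 4 and 6. In DE replicates 1, 3, 5 and 7 it stood at 0.730, 0.757, 0.737 and 0.658. The ratio of Acadvl to Acadm was thus lower in every DE library than in every FA library. The difference was -0.42 on the log2 scale (exact permutation p = 0.0286, adjusted over the 6 pairs 0.0571).

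Acadl to Acadm went from a ratio of 1.66 ± 0.0699 to 1.37 ± 0.0272 (SD, n = 4 each, exact permutation p = 0.0286, adjusted 0.0571). The ratio of Acadvl to Acads went from 4.64 ± 0.338 to 3.25 ± 0.254 (exact permutation p = 0.0286, adjusted 0.0571). The groups did not overlap for these 3 pairs. The unadjusted p of 0.0286 is the smallest that 4 libraries against 4 allow, and after adjustment none of the 6 pairs was at 0.05 or less.
Acadvl to Acadl went from 0.580 ± 0.0428 to 0.526 ± 0.0225 (exact permutation p = 0.0571, adjusted 0.0686), and Acadl to Acads from 8.04 ± 1.06 to 6.21 ± 0.730 (exact permutation p = 0.0571, adjusted 0.0686), with overlapping groups. Acadm to Acads differed by -0.09 on the log2 scale (exact permutation p = 0.486, adjusted 0.486). All 6 ratios of a longer-chain to a shorter-chain gene had a lower mean in DE, but they share 4 genes and are not independent of one another. In the libraries of prefix 11 alone the difference for Acadm to Acads was 0.0573, the other direction.

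**Figure D3:**
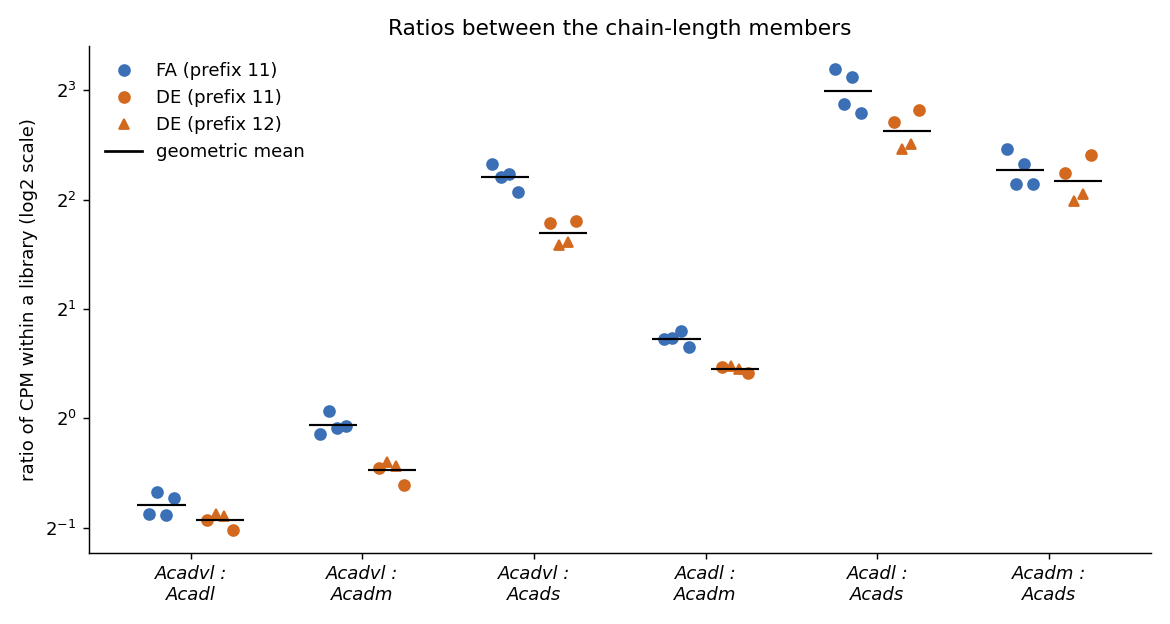
Ratio of CPM within each library for the 6 pairs of straight-chain members (log2 scale), FA in blue, DE in orange, triangles for prefix 12, black lines at geometric means. FA and DE libraries separate for Acadvl to Acadm, Acadvl to Acads and Acadl to Acadm, and overlap for the other 3 pairs.

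Acadsb and Acad8 act on branched acyl-CoAs, the first mainly from isoleucine and the second from valine. Acadsb (Entrez gene 66885, chromosome 7 from 131410601 to 131446211) was at 82.8, 71.7, 85.9 and 78.6 CPM in FA replicates 2, 3, 4 and 6. It was at 87.6, 66.95, 65.3 and 98.0 CPM in DE replicates 1, 3, 5 and 7. Both DE libraries of prefix 11 were above every FA library, and both of prefix 12 were below every FA library. The fitted log2 fold change over all 8 was -0.01 (95% interval -0.31 to 0.29, adjusted p = 0.981 in edgeR's test), and with the prefix as a term it was 0.22 (adjusted p = 0.333). The part of the prefix in this split was not tested. Acad8 (Entrez gene 66948, chromosome 9 from 26974138 to 26999571) lay between 34.3 and 39.6 CPM in FA and between 35.7 and 38.6 CPM in DE. Its log2 fold change was 0.02 (95% interval -0.18 to 0.21, adjusted p = 0.922 in edgeR's test).

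Acad9, Acad11, Acad12 and Acad10 complete the family. Acad9 (Entrez gene 229211, chromosome 3 from 36065979 to 36092857), needed for the assembly of complex I, had a mean of 79.1 ± 3.19 CPM in FA against 74.4 ± 5.27 CPM in DE (SD, n = 4 each). The log2 fold change was -0.09 (95% interval -0.29 to 0.11, adjusted p = 0.553 in edgeR's test). Acad11 (Entrez gene 102632, chromosome 9 from 104063724 to 104127656) was at 34.8 ± 2.55 and 35.5 ± 1.95 CPM. Acad12 (Entrez gene 338350, chromosome 5 from 121598277 to 121618938) was at 10.4 ± 0.581 and 10.7 ± 0.409 CPM. Their log2 fold changes were 0.03 and 0.04, and the groups overlapped. For Acadsb, Acad8, Acad9, Acad11 and Acad12 the 95% interval of the fit on all 8 libraries lay within a 25% difference in either direction.

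Acad10 (Entrez gene 71985, chromosome 5 from 121621026 to 121660603) rests on 897 counts in all, between 60 and 190 in a library. It was at 5.08, 4.88, 4.57 and 3.64 CPM in FA replicates 2, 3, 4 and 6, and at 3.24, 4.73, 3.04 and 3.20 CPM in DE replicates 1, 3, 5 and 7. DE replicate 3 lay among the FA libraries and the other 3 DE libraries below them. The log2 fold change of -0.35 had a 95% interval from -0.76 to 0.05 (adjusted p = 0.247 in edgeR's test), which holds both no difference and a decrease of 40.9%.
Acad10 and Acad12 lie side by side on chromosome 5 and are similar in sequence, and how shared reads were counted is not given. Acad10 overlaps Brap on the opposite strand by 41 bases, and Ackr4 lies within Acad11 on the opposite strand over 28962 bases. The strand setting of the counting is not given, so reads of such partners cannot be told apart. Acadl holds the pseudogene Gm15793 on its own strand over 631 bases, and Acadvl the microRNA gene Mir324 on the opposite strand over 89 bases. Over the 8 libraries Brap had 8677 counts against 897 of Acad10, so the partner was the more abundant of the overlapping genes. Ackr4 had 447 counts against 7831 of Acad11, and Mir324 had 96 against 107208 of Acadvl.

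Summed over the 10 genes, the level was between 2650 and 2835 CPM in FA and between 1818 and 2135 CPM in DE. The FA mean of 2714 ± 82.8 CPM and the DE mean of 1982 ± 133 CPM (SD, n = 4 each) differed by -27.0%. Acadl, Acadm and Acadvl made up 86.0 ± 0.387% of the sum in FA and 81.9 ± 0.932% in DE. The other 7 genes together went from 380 ± 14.4 to 358 ± 11.8 CPM. As a share of the sum, Acadvl went from 22.8% to 19.1% and Acadl from 39.4% to 36.3%, while Acadm went from 23.8% to 26.5%. In RNA of a whole cell preparation, fewer cells of a type and less RNA per cell cannot be told apart.

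**Figure D4:**
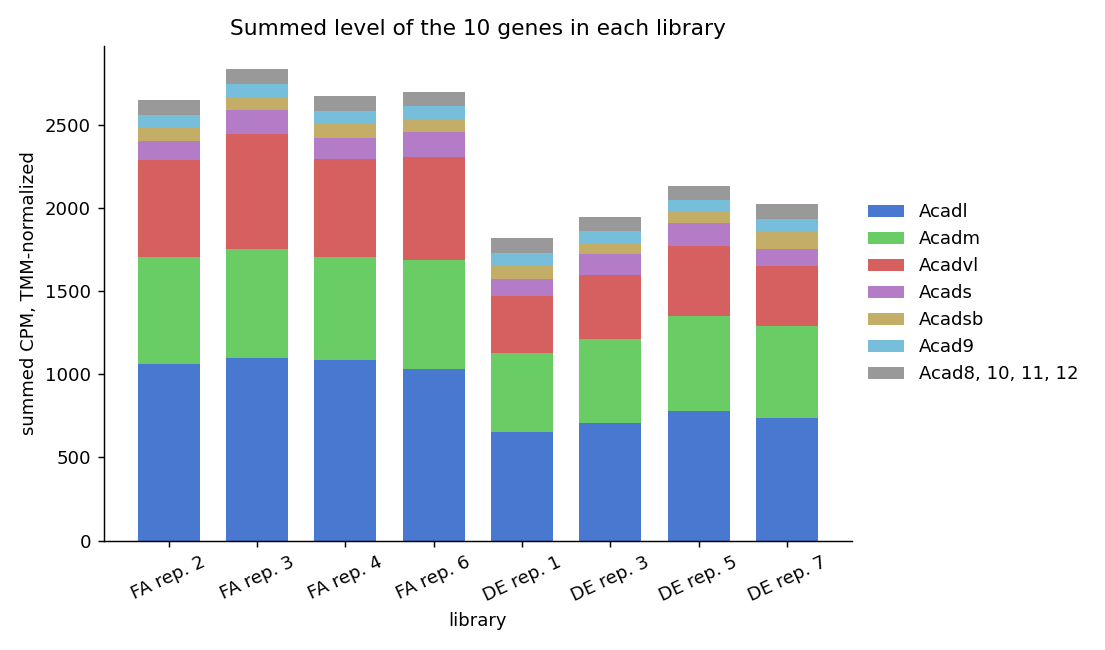
Summed CPM of the 10 genes in each library, stacked by gene. The 4 FA bars reach 2650 to 2835 CPM and the 4 DE bars 1818 to 2135 CPM, with Acadl, Acadm and Acadvl making up most of each bar.

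The genes that work beside the dehydrogenases were taken from 8 lists with 56 distinct genes, of which 54 were tested and 10 called, 9 lower and 1 higher in DE. The same test called 5.80% of all genes. Without FA replicate 2 or FA replicate 4 the count was 6. The median log2 fold change over the 54 was -0.17.
The electrons that these dehydrogenases take from acyl-CoA pass through the electron transfer flavoprotein. Its subunits Etfa and Etfb had log2 fold changes of -0.20 and -0.09 and were not called (adjusted p = 0.225 and 0.729 in edgeR's test). Etfdh, the oxidoreductase that passes the electrons on to ubiquinone, was at 506 to 529 CPM in the 4 FA libraries and at 271 to 290 CPM in the 4 DE libraries. Its log2 fold change of -0.90, with a standard error of 0.08, was called (edgeR, adjusted p = 0.000212) and under all 19 alternatives. It was the only one of 5 genes on this list to be called.

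Of the 8 later β-oxidation genes 5 were called, all lower in DE, against 2.22% of all tested genes. The median over the 8 was -0.68. This list was written with earlier results of these data known, so the count is no independent result. The paper itself names Hadha, Hadhb, Acaa2 and Eci2 as lower in DE. Hadha and Hadhb, the subunits of the trifunctional protein that continues the work of Acadvl, had log2 fold changes of -0.85 and -0.83. Decr1, which removes double bonds, was at -0.90, Eci2, an enoyl-CoA isomerase, at -0.73, and the thiolase Acaa2 at -0.64. The call of Acaa2 was lost with the 25% difference built into the test (edgeR, adjusted p = 0.0911, range 1.26e-06 to 0.0911). The hydratase Echs1 (log2 fold change 0.02), the isomerase Eci1 (-0.19) and the dehydrogenase Hadh (-0.33) were not called by edgeR. The groups did not overlap for Hadh (adjusted p = 0.0759 in edgeR's test), and DESeq2 called it lower (log2 fold change -0.32, adjusted p = 0.0193).

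Among relatives of the dehydrogenases, Acox3, a peroxisomal oxidase of branched acyl-CoAs that gives the electrons to oxygen, was called lower. It went from 32.6 ± 1.73 to 23.4 ± 0.746 CPM (SD, n = 4 each), and no library of one group reached the other. The call was lost without FA replicate 2 (edgeR, adjusted p = 0.0529) and without FA replicate 4 (edgeR, adjusted p = 0.0608), and over all alternatives the adjusted p reached 0.299. Ivd (log2 fold change 0.01) and Gcdh (0.24), dehydrogenases of leucine and lysine breakdown, and Acoxl (-0.44, with a mean under 0.5 CPM in both groups) were not called. Acox2 had 5 counts in all and was not tested.

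On the branched-chain amino acid list, which holds the enzymes around Acadsb and Acad8, 1 of 16 genes was called. This is near the share of 5.80% called over all tested genes. Mccc2, a carboxylase subunit of leucine breakdown, rose from 26.7 ± 1.28 to 34.3 ± 1.54 CPM (SD, n = 4 each). The fitted log2 fold change was 0.36 (adjusted p = 0.0391 in edgeR's test). This call was lost under 11 of 19 alternatives, among them the leaving out of any one library except DE replicate 1, and its adjusted p ranged from 0.00235 to 0.749. The list's median was -0.04.
Of the 5 genes for riboflavin and FAD, the cofactor of every member, 0 were called by edgeR and by DESeq2, and 2 (Flad1 and Slc52a2, both lower) had an unadjusted p under 0.05, against 25.6% of all genes. With the prefix as a term Flad1 was called (edgeR, log2 fold change -0.54, adjusted p = 0.0369). None of the 4 tested partners of Acad9 in complex I assembly and none of the 3 mitochondrial deacylases was called by either tool or had an unadjusted p under 0.05. Of 8 transcriptional regulators, Ppargc1b, a coactivator of mitochondrial genes, was called lower (log2 fold change -0.76, adjusted p = 0.0224 in edgeR's test). Its call was lost without FA replicate 2, FA replicate 4 or DE replicate 3 (adjusted p up to 0.0791, and up to 0.130 over all alternatives). Ppara, which encodes the fatty acid receptor of the heart, was at -0.25 (95% interval -0.58 to 0.07, adjusted p = 0.309 in edgeR's test). Ppard (0.32) and Nr2f2 (0.28) were higher in DE and also not called (adjusted p = 0.162 and 0.160 in edgeR's test). Among the 8 regulators, 2 lower and 2 higher had an unadjusted p under 0.05.

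**Figure D5:**
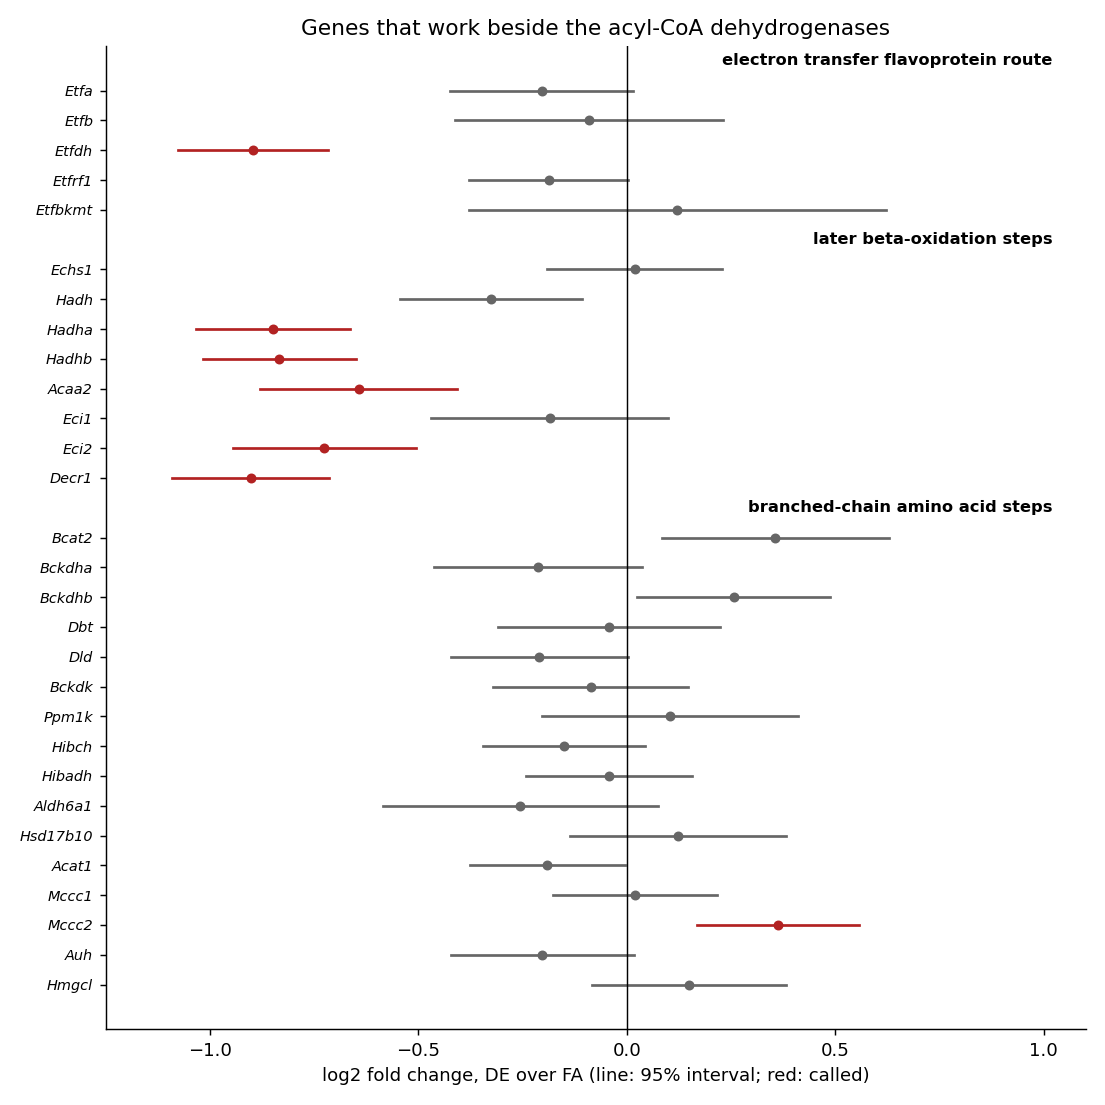
Log2 fold change of DE over FA with 95% intervals for the genes of 3 of the lists, red where called. Etfdh, Hadha, Hadhb, Decr1, Eci2 and Acaa2 are called below 0, and Mccc2 is the only called gene above 0.

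The genes whose pattern over the 8 libraries was most like that of a member were found by the root mean square difference of log2 CPM, each gene centred on its own mean, among the 9125 genes whose mean reached 10 CPM. Nearest to Acadvl were Acaa2 (0.0572), Eci2 (0.0575) and Klhdc2 (0.0738), against a median of 0.398 over all genes compared. Nearest to Acadl were Tmem135 (0.0589), Klhdc2 (0.0635) and Fbxo21 (0.0795), against 0.331. Nearest to Acadm were Rmi1 (0.0422), Sh3kbp1 (0.0444) and Nipsnap2 (0.0458), against 0.238. For Acads they were Exosc4 (0.0520), Dhrs4 (0.0561) and Slc27a4 (0.0569), against 0.265. The values describe likeness in these libraries, which share their exposure groups.

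Libraries held between 17943024 and 39839737 counts, and no pair within a group agreed within sampling noise (chi-square of at least 5.37 per gene). Over 9 lists of cell markers, the 8 cardiomyocyte genes summed to between 66299 and 71751 CPM in FA and between 57994 and 68523 CPM in DE, with 1 called higher and 1 lower. Within this sum, Myh6 was at 21243 to 24708 CPM in FA and 13762 to 15429 CPM in DE. Myh7 went the other way, from 9205 to 11230 CPM in FA and 13520 to 15529 CPM in DE. Of the 7 fibroblast genes behind the sums given above, 2 were called higher, against 3.58% of all tested genes. The endothelial (764 to 1035 CPM in FA and 812 to 1220 CPM in DE), smooth muscle and pericyte (1125 to 1765 and 795 to 1172), leukocyte (11.7 to 17.9 and 14.6 to 25.3) and atrial sums (510 to 1279 and 501 to 781) overlapped between the groups. Erythroid genes summed to 429 to 1023 CPM in FA and 674 to 1123 CPM in DE, with 1 called higher. Brown adipocytes and hepatocytes also make much of these enzymes. The 6 brown adipocyte genes summed to between 21.2 and 25.9 CPM in FA and between 16.6 and 18.1 CPM in DE, with Cidea called lower. Cidea was at 13.8 to 19.0 CPM in FA and 7.83 to 9.83 CPM in DE, while Dio2 was at 4.18 to 6.76 CPM in FA and 5.54 to 9.62 CPM in DE. Ucp1 was at 0.787 CPM or less in FA and at 1.98 and 1.17 CPM in DE replicates 3 and 5, and Adipoq, Plin1 and Elovl3 were at 0.143 CPM or less in every library. The 6 hepatocyte genes summed to at most 3.19 CPM, with Serpina1a at 0 in every library and Alb at 0.0574 CPM or less.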

How the data were processed

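RNA of NCMs from 8 male neonates, 4 FA and 4 DE, was measured by stranded poly-A RNA-seq. The authors aligned reads to mm10 with TopHat, marked duplicates without removing them, and counted fragments with featureCounts; these and FastQC, Picard, GATK and Cufflinks are the tools named in the submitters' processing notes. The table that the authors deposited holds unnormalized fragment counts, 1 row for each Entrez gene. Whether counting used strand, and how it dealt with multiply mapping reads, is not given in the sources used here. Duplicates that stay in the counts overstate the precision that depth gives.

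Symbols and positions are from RefSeq on GRCm38.p6 (25275 of 27179 rows matched), exon lengths from GENCODE M21. Genes passing filterByExpr (minimum count 10) were scaled by TMM factors and fitted on exposure alone with edgeR 4.0.16 (R 4.3.3). The standard error is the absolute log2 fold change divided by the square root of the F statistic. The fits were tested on simulated data. Named genes were the 10 members, the genes of 8 lists, the 3 genes most like each straight-chain member (pseudocount 0.5 CPM), and genes that overlap a member. Motifs were searched on both strands. The members and lists were chosen with earlier results of these data known and written from general knowledge. Of 56 listed partner genes, Coa1 was not found by symbol, and 1 is not reported here by name. Alternatives were DESeq2 1.42.0, limma-voom (limma 3.58.1), the likelihood ratio test, the 25% difference built into the test, other scaling factors, other filters, the name prefix, and each library left out. Permutation tests used scipy 1.17.1. No fit with the replicate number as a block was made, because the groups share only number 3.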

Additional observations from a re-analysis of the deposited data

Results flagged for a closer look

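Sample values far from the rest of their group were looked for in 60 groups of 4 libraries, and 4 groups passed Dixon's 95% critical value, where chance alone flags about 1 group in 20. In DE, Acad9 was higher in replicate 7 (82.2 CPM) than in the other 3 libraries (71.1 to 72.8 CPM), with a gap of 0.843 of the range. Acad10 was higher in DE replicate 3 (4.73 CPM) than in the other 3 (3.04 to 3.24 CPM), with a gap of 0.885 of the range. The sum of Acadl, Acadm and Acadvl was higher in FA replicate 3 (2444 CPM) than in the other FA libraries (2289 to 2309 CPM), with a gap of 0.876 of the range. Acox3 was lower in FA replicate 6 (30.05 CPM) than in the others (33.2 to 33.7 CPM), with a gap of 0.854 of the range.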

How the results depend on the processing

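The count of 2 called members held in 18 of 19 alternatives and was 1 with the 25% difference built into the test, where Acadl was lost. Without single libraries it was 2 throughout, and the log2 fold change ranged from -0.77 to -0.66 for Acadvl and from -0.61 to -0.53 for Acadl. The 868 genes called over the whole table became 1618 with DESeq2, 1603 with the likelihood ratio test, 114 with the 25% difference built in, 448 with the prefix as a term, 260 in the libraries of prefix 11 only, and 237 to 1168 without single libraries (leaving out FA replicate 4 gave 237, FA replicate 2 gave 249, DE replicate 3 gave 268, FA replicate 3 gave 433 and DE replicate 5 gave 526). The 10 called partner genes became 5 with the 25% difference built in, 6 in the libraries of prefix 11 only, and 6 to 10 without single libraries (6 when FA replicate 2 or 4 was left out). The cause of these shifts was not tested. The sign changed for members near 0. Acadsb was at 0.0145 with upper quartile factors, 0.0619 with library totals alone, 0.00020 with no filter, 0.22 with the prefix as a term, 0.21 in prefix 11 only, and between -0.13 and 0.0771 without single libraries. Without single libraries Acad8 lay between -0.0140 and 0.0556 and Acad11 between -0.0150 and 0.0699. The ratio of Acadm to Acads moved from -0.09 to 0.0573 in prefix 11 only, and lay between -0.17 and -0.03 without single libraries. The other 5 ratios kept their sign in every alternative. Without single libraries no exact permutation p can reach 0.05, so those were compared by value. No paired analysis was possible because the groups share only 1 replicate number.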
